A study of Mus musculus with 6 samples.

Results

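Cxcl1, Cxcl2, Cxcl3 and Cxcl5 are CXC chemokines that attract neutrophils. They were chosen by name, as every probe set whose single gene symbol is one of these 4, which gave 6 probe sets and 4 genes of the 18193 genes with a single-symbol probe set on the array. Cxcl1 had 3 probe sets (1457644_s_at, 1419209_at and 1441855_x_at) and is given by the brightest, the first. Cxcl2 (1449984_at), Cxcl3 (1438148_at) and Cxcl5 (1419728_at) had 1 each. All 4 genes passed the filter on low signal and stood among the 12917 genes tested.

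Expression was measured on 1-colour arrays in primary mouse embryo fibroblasts, connective tissue cells grown from ICR embryos at embryonic day 15.5. There were 2 cultures, each from its own embryo, and every culture gave 1 array per group, so n = 2 in each group. HS+LPS cells spent 1 h at 42 °C before 4 h with lipopolysaccharide (LPS), a bacterial cell wall component. LPS cells received LPS at 1 μg/ml for 4 h without heat. Control cells stayed at 37 °C. A group with heat shock alone was not analysed here, so HS+LPS against LPS holds the effect of heat itself together with any interplay with LPS. ICR is an outbred stock, and the 2 cultures are the only biological replicates.

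Chemokines of this kind carry a glutamate-leucine-arginine motif ahead of their first cysteines and bind the receptor CXCR2, which neutrophils display and fibroblasts mostly lack. Fibroblasts, endothelial cells and macrophages make them within hours of sensing LPS through Toll-like receptor 4, when NF-kB enters the nucleus and binds their promoters. Their mRNAs are short-lived, being targets of decay proteins such as tristetraprolin (Zfp36) and regnase-1 (Zc3h12a). Cxcl1 is also known as KC, Cxcl2 as MIP-2, and Cxcl5 as LIX.

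The deposited values appear already scaled to a common mean, so similar array medians cannot show equal array quality in the groups. Array medians lay between 11.9 and 14.4 scaled intensity units and the highest signals between 6931 and 8434. Noise was set per array at the highest of 27 control probe sets made for Bacillus subtilis transcripts and came to 6.0 to 7.67. The heat label was checked on 6 heat-inducible genes, of which 5 rose in HS+LPS against LPS (6 with the culture as a block), Hspa1a by a log2 difference of 6.25 (limma adjusted p = 0.000134). All 8 fibroblast markers were above noise on every array. Of 8 neutrophil markers on the array, Ltf and S100a9 were at or under noise on every array, 2 were above it on all, and the list summed to 63.2 and 46.8 in HS+LPS, 91.1 and 46.9 in LPS, and 86.6 and 40.1 in Control (culture 1, then culture 2). Of 8 macrophage and leukocyte markers, 5 were above noise on every array and Itgam on none; they summed to 359.7 and 236 in HS+LPS, 390.5 and 209.7 in LPS, and 424 and 239 in Control. Endothelial and epithelial markers summed to at most 102.6 and 140.7 on any array, with Pecam1, Tie1, Vwf and Cdh1 at or under noise throughout. Epithelial sums were 102.1 and 140.7 in HS+LPS, 54.9 and 105.0 in LPS, and 56.7 and 71.0 in Control. The part of other cell types in the results below was not tested.

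The 4 genes shared one pattern over the groups: high with LPS, lower with heat before LPS, and low or moderate in Control. In such bulk RNA, fewer cells making a transcript and less of it per cell cannot be told apart. Signals below are in scaled intensity units, culture 1 before culture 2.

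Cxcl1, a major neutrophil attractant of stromal cells, read 767 and 1361 in HS+LPS, 3689.6 and 3646 in LPS, and 208 and 703 in Control. The LPS arrays were the highest and nearly equal, and the 3 groups did not overlap. Its other 2 probe sets had the same order of groups: in the first, means ± SD were 806 ± 314 in HS+LPS, 3093 ± 40.9 in LPS and 384 ± 289 in Control. In the other they were 284 ± 70.5 in HS+LPS, 1149 ± 168 in LPS and 178 ± 119 in Control. In both, HS+LPS and Control overlapped: HS+LPS in culture 1 (584 and 234) lay under Control in culture 2 (589 and 262). The brightest probe set (1457644_s_at) and 1441855_x_at are of types that can bind related transcripts, and 1419209_at is of neither type. For LPS against Control the log2 differences were 3.23 at 1419209_at and 2.83 at 1441855_x_at, beside 3.25 at the brightest. For HS+LPS against LPS they were -1.99 and -2.02, beside -1.84.

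Cxcl2, a close relative of Cxcl1 with the same receptor, read 61.6 and 110.3 in HS+LPS, 1189.8 and 886 in LPS, and 0.285 and 7.34 in Control. Its Control signal was above noise in culture 2 and below it in culture 1, while both other groups were well above noise, and no groups overlapped.

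Cxcl3, closely related to both, read 7.21 and 14.6 in HS+LPS, 161 and 172 in LPS, and 4.14 and 11.6 in Control. In HS+LPS and in Control only culture 2 was above noise, and these groups overlapped. LPS stood apart from both.

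Cxcl5, a relative that also serves as a CXCR2 ligand, read 179.8 and 815 in HS+LPS, 2286 and 3569 in LPS, and 243 and 1402 in Control. It was far above noise in all groups, HS+LPS and Control overlapped, and in each culture HS+LPS lay below Control.

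**Figure D1:**
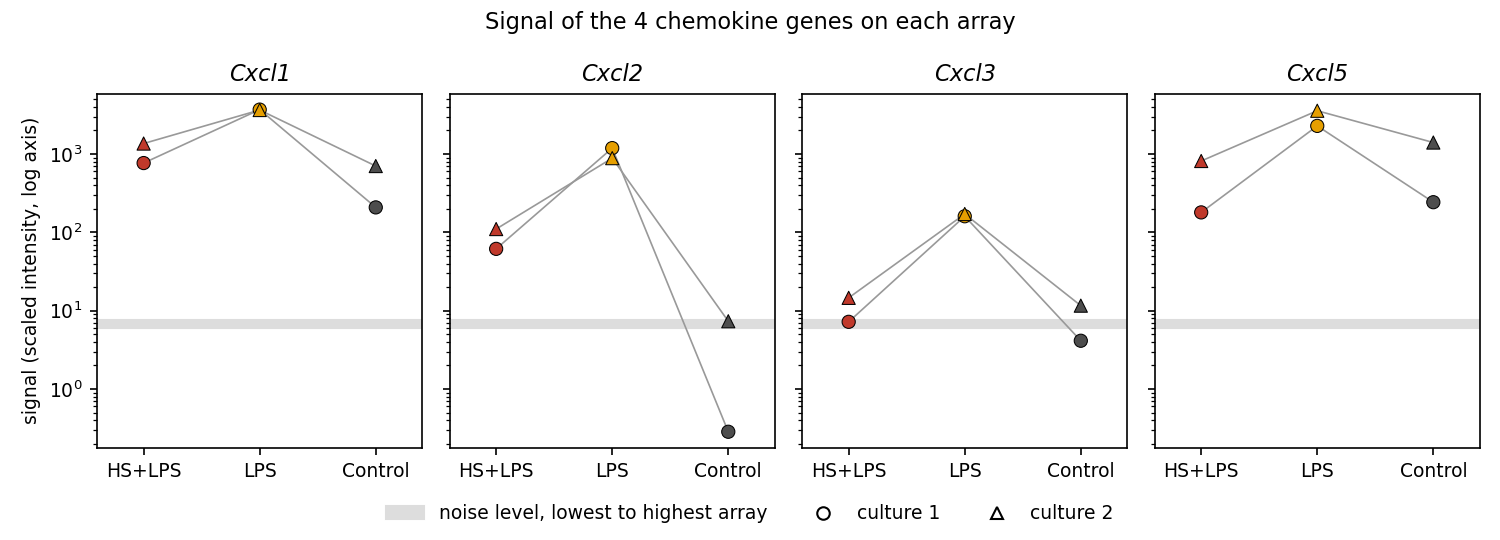
Signal of Cxcl1, Cxcl2, Cxcl3 and Cxcl5 (scaled intensity, log axis) on each of the 6 arrays, with HS+LPS, LPS and Control from left to right; circles are culture 1, triangles culture 2, lines join a culture's arrays, and the grey band spans the arrays' noise levels (6.0 to 7.67). The LPS arrays are highest in every panel. Culture 1 signals of Cxcl2 in Control, and of Cxcl3 in Control and HS+LPS, are under the noise level of their array.

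Promoters of 3 of the 4 genes were in the RefSeq table used (build GRCm38.p6), and the 250 bases before each annotated start are shown because the genes moved together and these windows share letters. Capitals mark every stretch of 8 or more bases that the 3 windows hold in common: GGGAATTTCCC, of the NF-kB (kB) type, and ATAAAAGG, of the TATA type.
Cxcl1 (chr5:90890995-90891244, plus strand): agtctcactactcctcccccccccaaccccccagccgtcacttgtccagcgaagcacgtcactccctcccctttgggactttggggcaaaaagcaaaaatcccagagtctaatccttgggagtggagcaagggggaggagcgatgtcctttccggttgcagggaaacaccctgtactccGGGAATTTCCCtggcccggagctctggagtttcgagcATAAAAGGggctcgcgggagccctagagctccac
Cxcl2 (chr5:90903649-90903898, plus strand): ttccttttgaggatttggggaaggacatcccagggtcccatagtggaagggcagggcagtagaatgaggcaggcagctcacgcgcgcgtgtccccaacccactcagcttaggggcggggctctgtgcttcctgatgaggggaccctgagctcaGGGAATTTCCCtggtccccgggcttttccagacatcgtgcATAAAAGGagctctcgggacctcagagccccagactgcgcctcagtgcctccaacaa
Cxcl3 (chr5:90785851-90786100, plus strand): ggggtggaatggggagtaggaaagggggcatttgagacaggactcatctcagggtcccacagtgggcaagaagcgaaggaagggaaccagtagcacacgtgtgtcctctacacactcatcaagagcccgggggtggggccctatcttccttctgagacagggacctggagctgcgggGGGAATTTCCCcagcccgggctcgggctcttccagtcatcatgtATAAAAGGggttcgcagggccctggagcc
GGGAATTTCCC began 71 bases before the start in Cxcl1, 97 in Cxcl2 and 73 in Cxcl3, and ATAAAAGG followed after 26, 29 and 33 bases. Aligned over their whole length, the windows were 50.2% (Cxcl1 and Cxcl2), 51.3% (Cxcl1 and Cxcl3) and 56.1% (Cxcl2 and Cxcl3) identical.

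Both strands of the same window were then searched in all 32851 promoters of the table. GGGAATTTCCC was in 0.0426% of them and ATAAAAGG in 1.54%, beside 3 of 3 here by choice. The 3 windows held no TGANTCA (AP-1 type, in 6.75% of promoters), no TGACGTCA (ATF and CRE type, 1.55%), no TTCNNGAA (7.17%) and no GAANNTTC (6.69%), the paired units of heat shock elements. A match is a run of letters and not a site shown to be bound. Besides Cxcl1, Cxcl2 and Cxcl3, 3 tested genes held GGGAATTTCCC: Gm38983, Il16 and Zfp84, named for those letters alone and after their values were seen. Of these, 0 passed in LPS against Control or HS+LPS against LPS, with or without the culture in the limma fit, and their log2 differences for LPS lay between -0.53 and 0.06. None of the 5 other CXC ligands with a promoter in the table held those letters.

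LPS against Control asks how far the stimulus induced these genes. Cxcl2 rose with LPS, by a fitted 165-fold over Control, where its signal was near or under noise (log2 difference 7.36, SE 0.54, limma adjusted p = 0.0145), and had the highest log2 difference of all 12917 genes. Cxcl3 had a log2 difference of 4.00 (SE 0.42), 16-fold, and just missed the threshold (limma adjusted p = 0.0500314). Cxcl1 had 3.25 (SE 0.56), 9.50-fold (adjusted p = 0.203), and Cxcl5 2.28 (SE 0.98), 4.86-fold (adjusted p = 0.999). In this fit, which leaves out the pairing by culture, 1 of 4 rose and 3 did not pass. The same limma fit called 0.147% of all genes tested higher.

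With the culture as a replicate block, all 4 rose. The block takes out of the error only the embryo difference common to all groups, and it left 2 residual degrees of freedom. The limma adjusted p were then 0.000697 for Cxcl1, 1.63e-05 for Cxcl2, 0.000143 for Cxcl3 and 0.00907 for Cxcl5, against a background of 2.06% of genes called higher. LPS arrays lay above Control arrays without overlap for 4 of 4 members, as for 13.1% of all genes. The median log2 difference was 3.62 over the 4 members and -0.05 over all genes.

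The size for Cxcl2 rests on a Control signal near noise. It was 53.5-fold with a pseudocount of 16, 314-fold with a pseudocount of 1 (adjusted p = 0.0507), and 95.4-fold with signals raised to the noise level of their array. Its call was lost without either LPS array (adjusted p = 0.202 without culture 1 and 0.138 without culture 2) and without either HS+LPS array (0.0571 and 0.0558). Folds without 1 Control array ran from 96.2 to 282 for Cxcl2, from 5.20 to 17.3 for Cxcl1 and from 2.03 to 11.6 for Cxcl5. Cxcl3 was 7.72-fold with a pseudocount of 16.

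HS+LPS against LPS asks which of them heat shock lowered. Cxcl3 and Cxcl2 fell. Cxcl3 averaged 10.9 ± 5.22 in HS+LPS and 166 ± 7.76 in LPS (SD, n = 2 each), 12.3-fold lower (log2 difference -3.62, SE 0.42, limma adjusted p = 0.0248). Cxcl2 averaged 85.9 ± 34.4 in HS+LPS and 1038 ± 215 in LPS, 12.0-fold lower (log2 difference -3.58, SE 0.54, adjusted p = 0.0475). They were the 11th and 12th lowest log2 differences of all genes. The Cxcl3 signal in HS+LPS was under noise in culture 1, so its size is not exact: it was 6.83-fold with a pseudocount of 16 and 12.03-fold with signals raised to noise. Cxcl5 (-2.89, SE 0.98, 7.39-fold, adjusted p = 0.225) and Cxcl1 (-1.84, SE 0.56, 3.58-fold, adjusted p = 0.192) did not pass in the limma fit without the block.

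So 2 of 4 members fell in the fit without the block, where 0.828% of all genes were called lower. With the culture as a replicate block all 4 fell, with limma adjusted p of 0.00464 for Cxcl1, 0.000404 for Cxcl2, 0.000103 for Cxcl3 and 0.000888 for Cxcl5, beside 12.6% of all genes. HS+LPS arrays lay below LPS arrays without overlap for 4 of 4 members and 28.8% of all genes. The median log2 difference was -3.23 over the members and -0.05 over all genes. The Cxcl2 call was lost in 6 of 13 processing alternatives (adjusted p 0.0524 to 0.117) and without any 1 LPS or HS+LPS array (0.170 to 0.238), and the Cxcl3 call without any 1 of those arrays (0.106 to 0.200).

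The share of the LPS signal left after heat was not the same for each gene. As a share of the LPS signal of the same culture, Cxcl1 kept 20.8% in culture 1 and 37.3% in culture 2, and Cxcl5 7.87% and 22.8%. Cxcl2 kept 5.18% and 12.4%, and Cxcl3 4.49% and 8.51%. By this measure Cxcl1 kept the largest share and Cxcl3 the smallest in each culture, and every share was larger in culture 2. The order changes once the Control signal is subtracted. Of the increase over Control, Cxcl1 kept 16.04% in culture 1 and 22.4% in culture 2, Cxcl2 5.15% and 11.7%, and Cxcl3 1.97% and 1.87%. The Cxcl1 share depends on the probe set: it was 13.7% and 17.8% at 1419209_at, and 11.9% and 9.30% at 1441855_x_at. At the last, Cxcl1 lay under Cxcl2 in culture 2, and its share was smaller in culture 2 than in culture 1. Cxcl5 kept -3.08% and -27.1%, the least, since its HS+LPS signal was under Control. With 1 value per culture these orders carry no test, and shares of Cxcl3 rest on signals near or under noise.

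HS+LPS against Control asks what induction remained. Without the block 0 of 4 members passed in limma (0.17% of all genes were called higher). At an unadjusted p under 0.05, 2 members were higher, beside 4.48% of all genes. Cxcl2 had a log2 difference of 3.78 (SE 0.54, 13.7-fold, adjusted p = 0.0681). Its fold was 7.95 with signals raised to noise (adjusted p = 0.0305), 5.08 with a pseudocount of 16 (0.0513) and 25.5 with a pseudocount of 1 (0.0898). Without 1 Control array it was 8.02 (culture 1 left out) or 23.5 (culture 2 left out). Cxcl1 had 1.41 (SE 0.56, 2.65-fold, adjusted p = 0.2996), and its fold was 1.45 without Control in culture 1 and 4.84 without Control in culture 2.

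With the culture as a replicate block Cxcl2 and Cxcl1 were higher than Control (limma adjusted p = 0.000551 and 0.0159). This was 2 of 4 members, beside 5.09% of all genes. At these probe sets their HS+LPS arrays also lay above Control without overlap, as for 14.3% of all genes. The Cxcl1 result depends on the probe set. With every probe set kept and the block, limma adjusted p was 0.0259 for 1419209_at (log2 difference 1.24) and 0.115 for 1441855_x_at (0.81). In both of these probe sets HS+LPS and Control overlapped. Cxcl3 and Cxcl5 did not pass in either fit: 0.38 (95% interval with the block -0.26 to 1.01, adjusted p = 0.3999) and -0.60 (-1.39 to 0.18, adjusted p = 0.271). Both differences changed sign when certain single arrays were left out: Cxcl3 to -0.12 without Control in culture 1, and Cxcl5 to 0.65 without Control in culture 2. Cxcl3 was 0.88 without Control in culture 2, and Cxcl5 -1.86 without Control in culture 1. The median over the members was 0.89, against -0.09 over all genes. The comparisons share arrays, so their values are not independent of each other.

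**Figure D2:**
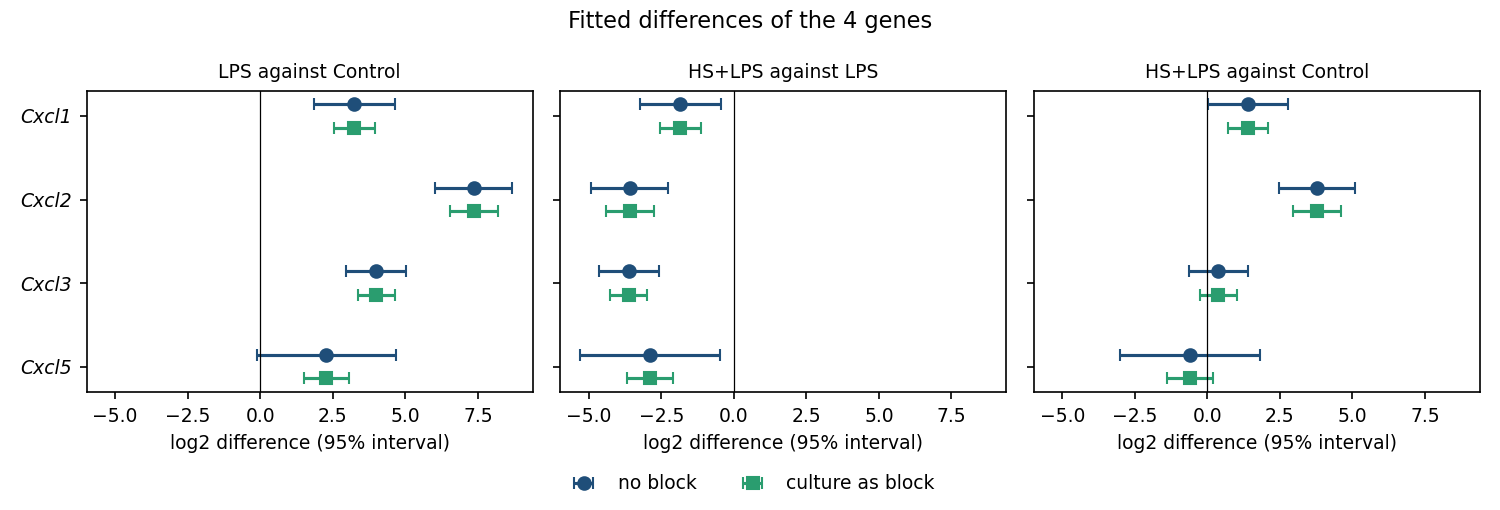
Fitted log2 differences of the 4 genes (rows) with 95% intervals in the 3 comparisons (panels); circles are the fit without the culture, squares the fit with the culture as a block. The squares' intervals are shorter, and with the block all 4 genes lie above 0 for LPS against Control and below 0 for HS+LPS against LPS.

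**Figure D3:**
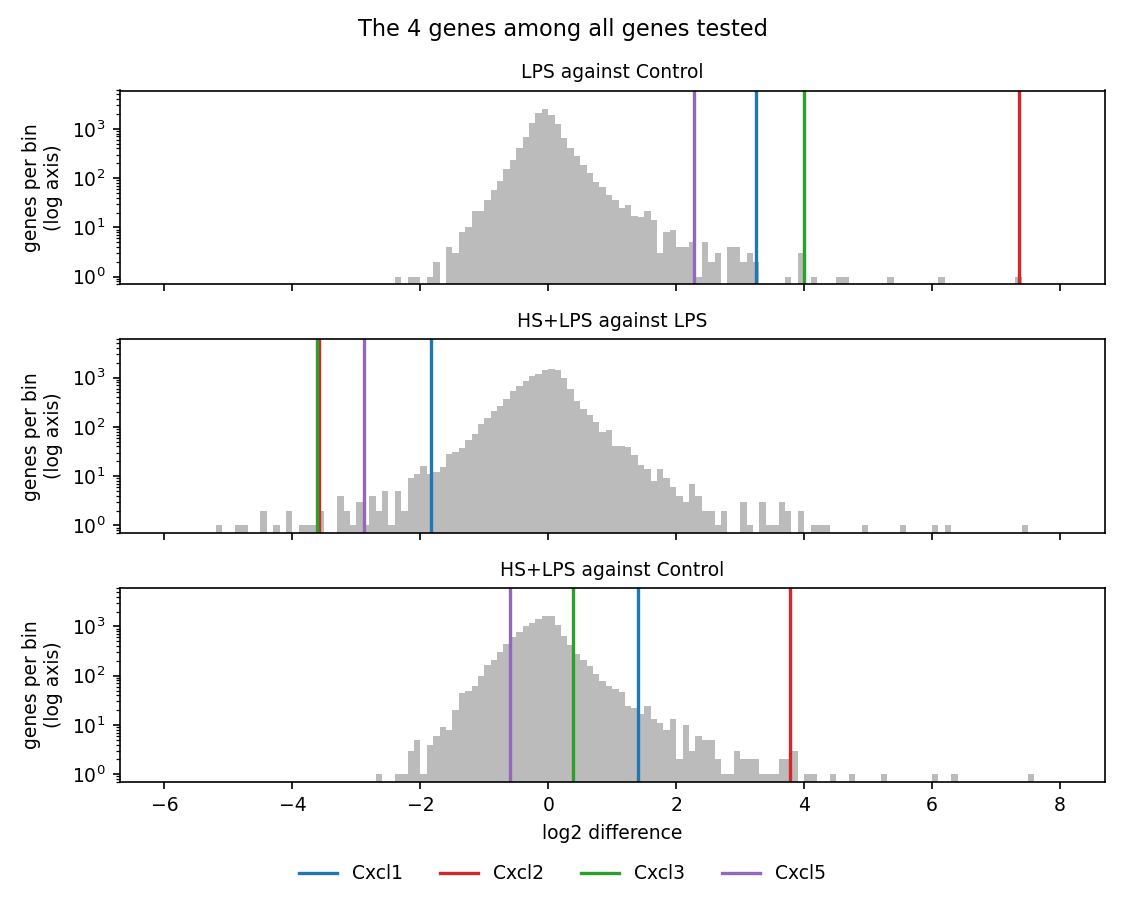
Histograms of the log2 differences of all 12917 genes in bins of 0.1 (number of genes on a log axis), with the 4 chemokine genes as coloured lines. Cxcl2 is the rightmost gene for LPS against Control (7.36), and Cxcl2 and Cxcl3 nearly coincide for HS+LPS against LPS (-3.58 and -3.62).

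For Cxcl1 and Cxcl5 the cultures differed most in Control and least with LPS alone. In Control, culture 2 exceeded culture 1 by 1.74 (Cxcl1), 1.55 (Cxcl2), 1.00 (Cxcl3) and 2.51 (Cxcl5) in log2 of signal plus pseudocount, and Cxcl5 ranked 25th of all genes in that difference. In HS+LPS the excess of culture 2 was 0.83, 0.81, 0.76 and 2.16. In LPS it was -0.02, -0.42, 0.09 and 0.64, so there the cultures were nearly equal for Cxcl1 and Cxcl3. Control signals of Cxcl2 and Cxcl3 in culture 1 were under noise. Raised to it, their Control differences were -0.02 and 0.46, below those in HS+LPS (0.81 and 0.70).

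Fold changes differed by culture too. LPS over Control was 17.4-fold in culture 1 and 5.17-fold in culture 2 for Cxcl1, 326-fold and 83.0-fold for Cxcl2, 21.8-fold and 11.7-fold for Cxcl3, and 9.30-fold and 2.54-fold for Cxcl5. Each was smaller in culture 2. With signals raised to noise, the culture 1 folds were 109.5 for Cxcl2 and 15.1 for Cxcl3, so sizes over a Control signal under noise are not exact. HS+LPS was below LPS by 4.79-fold and 2.67-fold for Cxcl1, 18.4-fold and 7.83-fold for Cxcl2, 15.5-fold and 9.74-fold for Cxcl3, and 12.5-fold and 4.37-fold for Cxcl5, again less in culture 2. Marker sums differed by culture as well. In Control, fibroblast markers summed to 26506 in culture 1 and 33216 in culture 2, endothelial markers to 58.1 and 73.4, and epithelial markers to 56.7 and 71.0, all higher in culture 2, as in LPS and HS+LPS. Macrophage and leukocyte markers (424 and 239) and neutrophil markers (86.6 and 40.1) were lower in culture 2. Their part in the culture difference was not tested. With 1 array per culture and group, this difference between embryos has no test.

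**Figure D4:**
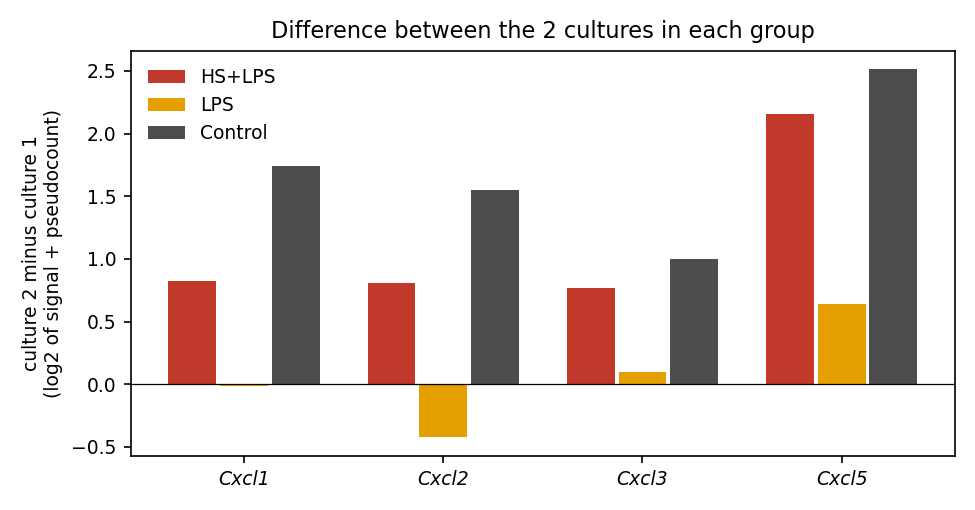
Culture 2 minus culture 1, in log2 of signal plus pseudocount, for each gene in HS+LPS, LPS and Control (bars from left to right, 1 array of each culture per bar). Bars are tallest in Control, where those of Cxcl2 and Cxcl3 rest on culture 1 signals under noise, and near or below 0 in LPS for Cxcl1, Cxcl2 and Cxcl3.

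The genes sit in one cluster on mouse chromosome 5, in the order Cxcl5, Ppbp, Pf4, Cxcl3, Cxcl15, Cxcl1 and Cxcl2 in the RefSeq gene table. Of the 3 neighbours in between, 0 passed in any comparison with or without the block. Ppbp, a platelet chemokine precursor, read 128 and 46.6 in HS+LPS, 129 and 93.9 in LPS, and 124 and 59.4 in Control. Pf4, a platelet chemokine, read 11.2 and 13.4 in HS+LPS, 12.2 and 18.9 in LPS, and 22.3 and 17.5 in Control. Cxcl15, a chemokine known from mouse lung, stayed between 29.1 and 36.7 on all 6 arrays. The limma log2 differences of these 3 lay between -0.31 and 0.34 for LPS against Control.

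**Figure D5:**
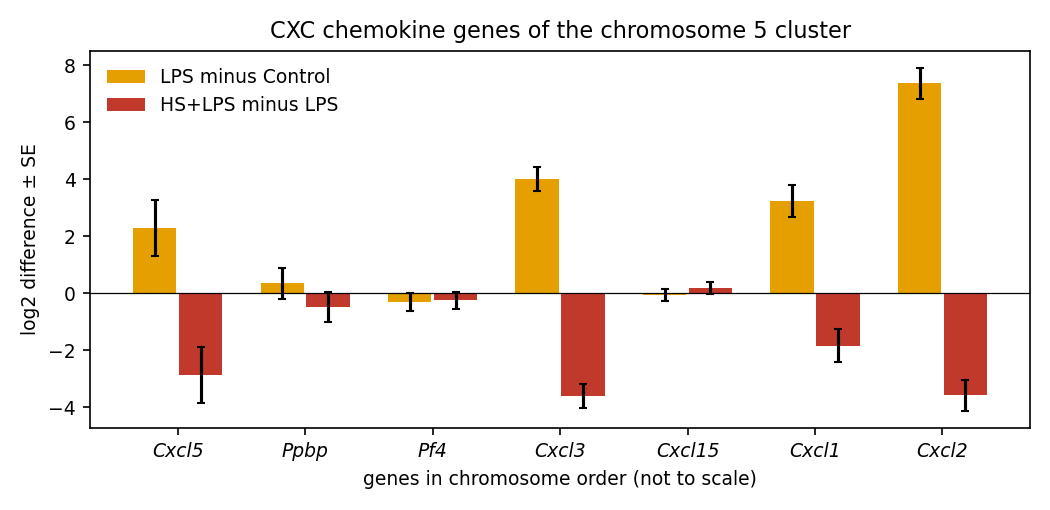
Log2 differences ± SE of the 7 CXC chemokine genes of the cluster in chromosome order (spacing not to scale), for LPS minus Control (left bars) and HS+LPS minus LPS (right bars). Cxcl5, Cxcl3, Cxcl1 and Cxcl2 have tall bars in opposite directions, and Ppbp, Pf4 and Cxcl15 do not.

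Of the receptors, Ackr1 was tested and did not pass in any comparison. Cxcr2, the main receptor, was between 1.08 and 2.31 on all arrays, at or under noise on each, and was not tested. Ackr1, a decoy receptor that binds these chemokines without signalling, read 13.9 and 22.4 in HS+LPS, 18.6 and 26.3 in LPS, and 19.7 and 17.7 in Control, with groups that overlapped. Of 7 other CXC ligands tested, 1 rose with LPS, Cxcl10 (3 with the block), and 2 fell in HS+LPS against LPS, Cxcl10 and Cxcl16 (3 with the block). Their median log2 differences were 0.73 and 0.02, against -0.05 over all genes in both comparisons. Cxcl10, an attractant of T cells, had log2 differences of 5.31 for LPS against Control (limma adjusted p = 0.00593) and -3.52 for HS+LPS against LPS (adjusted p = 0.00739). Cxcl16, a scavenger receptor and chemokine, had 2.00 for LPS against Control (adjusted p = 0.143, or 0.000218 with the culture included) and -2.05 for HS+LPS against LPS (adjusted p = 0.0467).

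A list of 4 factors chosen for neutrophil growth and retention (Csf2, Csf3, Kitl and Lif) was also followed. In limma without the block 0 of 4 passed in any comparison. Csf2 (GM-CSF) read 8.12 and 23.5 in HS+LPS, 53.7 and 48.2 in LPS, and 1.18 and 5.72 in Control, the last at or under noise. Csf3 (G-CSF), which drives neutrophil production, read 9.43 and 14.9 in HS+LPS, 33.6 and 55.7 in LPS, and 7.31 and 2.01 in Control, there at or under noise too. With the block both were higher in LPS than Control (adjusted p = 0.00308 and 0.0136) and lower in HS+LPS than LPS (0.0202 and 0.0326). Kitl, the ligand of the stem cell receptor Kit, went the other way with the block (lower in LPS than Control, adjusted p = 0.0214, and higher in HS+LPS than LPS, adjusted p = 0.00524). Lif, an IL-6 family cytokine, rose with LPS with the block (0.000218) and did not pass in HS+LPS against LPS (0.12).

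Along the route from LPS sensing to NF-kB, 15 of 19 genes were tested; 1 rose and 14 did not pass in LPS against Control, and 1 rose, 1 fell and 13 did not pass in HS+LPS against LPS. With the block 3 rose in the first comparison, and 1 rose and 5 fell in the second. Median log2 differences were 0.33 and -0.12. The one that rose in both was Nfkbiz, an IkB protein that acts in the nucleus as a co-activator: it averaged 2158 ± 109 in HS+LPS, 1211 ± 39.6 in LPS and 428 ± 15.7 in Control (log2 differences 1.49 for LPS, adjusted p = 0.0145, and 0.83 for heat before LPS, adjusted p = 0.0303). Its direction was thus opposite to that of the chemokines with heat. Cd14, the co-receptor that hands LPS to Toll-like receptor 4, fell with heat (35.0 ± 0.057 in HS+LPS and 105.4 ± 17.3 in LPS, log2 difference -1.50, adjusted p = 0.0306).

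Of 6 feedback inhibitors of NF-kB, 2 rose with LPS (Tnfaip3 and Tnip1, log2 differences 2.24 and 1.54) and 2 fell in HS+LPS against LPS (Nfkbie and Tnip1, -4.21 and -1.73). With the block 5 rose and 4 fell, and the medians were 1.36 and -0.97. Of 6 tested upstream cytokines and receptors, 0 rose with LPS without the block and 3 with it, and 2 fell in HS+LPS against LPS, or 3 with the block (medians 1.22 and -0.60). Tnf and Il1b, cytokines that themselves induce these chemokines, fell with heat (limma adjusted p = 0.0287 and 0.0248). Il1b read 8.76 and 13.6 in HS+LPS, 99.8 and 67.3 in LPS, and 15.3 and 15.5 in Control. Tnf read 1.77 and 2.46 in HS+LPS, 47.5 and 31.1 in LPS, and 1.07 and 1.44 in Control, with only its LPS arrays above noise. Tnf passed the filter on low signal only through those LPS arrays, so the filter favoured its fall with heat.

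Of 10 regulators of mRNA life, 1 rose with LPS and 9 did not pass, and 1 fell in HS+LPS against LPS and 9 did not pass, or 3 rose and 1 fell with the block (medians 0.20 and 0.24). Zc3h12a, whose RNase degrades inflammatory mRNAs, averaged 344 ± 30.3 in HS+LPS, 387 ± 33.3 in LPS and 46.9 ± 0.75 in Control (log2 difference for LPS 2.96, adjusted p = 0.00593; for heat before LPS -0.17, adjusted p = 0.618). Its HS+LPS and LPS arrays overlapped, which those of the 4 chemokine genes did not. Zfp36, whose protein speeds the decay of mRNAs with AU-rich elements, read 226 and 372 in HS+LPS, 100.3 and 139 in LPS, and 122 and 149 in Control. It had a log2 difference of 1.27 for HS+LPS against LPS, 2.41-fold (adjusted p = 0.109), and rose with the block (0.000376). Zfp36l2 and Elavl1 also rose with the block (log2 differences 0.47 and 0.32, limma adjusted p = 0.0121 and 0.0266). They did not pass without it. The list covers both decay and stability of mRNAs. Traf3ip2, the adaptor through which interleukin-17 stabilises chemokine mRNAs, fell with heat (68.4 ± 0.48 in HS+LPS and 156 ± 24.1 in LPS, log2 difference -1.14, adjusted p = 0.0442). Atf3, a heat-induced transcription factor known to hold down inflammatory genes, averaged 2082 ± 15.3 in HS+LPS, 28.5 ± 8.78 in LPS and 28.8 ± 4.14 in Control (log2 difference 6.06 for heat before LPS, adjusted p = 0.000605).

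The genes most like each member were ranked by the root mean square distance between centred log2 values over the 6 arrays, where 0 means the same profile. Nearest to Cxcl1 was Csf2 (0.26), followed by Tmem132e (0.61) and Cx3cl1 (0.66), a chemokine. For Cxcl2 the nearest were Cxcl10 (1.11), Ccl5 (1.18) and Acod1 (1.64), none of them close. Cxcl3 was nearest to Nos2 (0.42), Gbp2 (0.50) and Tnf (0.51), and Cxcl5 to Saa3 (0.32), Wfdc17 (0.50) and Gbp2 (0.53). Within the set, Cxcl1 and Cxcl3 were closest (0.76) and Cxcl2 and Cxcl5 farthest (2.32). Each member had a closer gene outside the set than within it. That search covered all other tested genes and the set holds few, so it cannot tell how alike the members are.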

How the data were processed

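Total RNA was labelled as biotinylated cRNA and hybridised to 1-colour Affymetrix Mouse Genome arrays, 6 in all, per the labels' protocols. The authors deposited 1 linear intensity for each probe set; the software that made them is not given in the sources used here. The mean after trimming 2% at each end was 100.001 on every array, so the authors' values appear scaled to a common mean, which hides differences in total mRNA. Of 45101 probe sets, 34958 had 1 gene symbol in the platform annotation, 932 several and 9211 none listed; current RefSeq changed 0 symbols.

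Signals became log2(intensity + 3.37), 3.37 being the 25th percentile, which understates folds of dim genes. Control probe sets were dropped, as were those whose mean log2 signal lay below the 40th percentile, keeping 27022, and each gene was read at its brightest single-symbol probe set. Differences were fitted for the 3 groups together with limma 3.58.1 in R 4.3.3 (intensity trend, 3 residual degrees of freedom), Benjamini-Hochberg over 12917 genes, threshold 0.05. The number of arrays limits the precision.

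The labels tie each replicate number to 1 embryo, so the arrays are paired across groups: deviations from group means correlated at 0.62, 0.57 and 0.54. The protocols name no block, so the culture was added in an alternative. The members and lists were chosen with earlier results of these data known. Named genes are the members, list genes that passed in a comparison, members of lists of 4 or fewer, and the 3 genes nearest each member. Motifs were searched, and promoters aligned, with Python 3.11.15 and Biopython 1.88.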

Additional observations from a re-analysis of the deposited data

How the results depend on the processing

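The 4 chemokine genes kept their direction under every alternative in LPS against Control and in HS+LPS against LPS (150 values, 0 reversed). In HS+LPS against Control 4 values reversed, all without 1 array: Cxcl3 to -0.12 (without Control replicate 1) and -0.0026 (without HS+LPS replicate 2), and Cxcl5 to 0.48 (without HS+LPS replicate 1) and 0.65 (without Control replicate 2). Their ranges without 1 array were -0.12 to 0.88 (Cxcl3) and -1.86 to 0.65 (Cxcl5). With the culture as a replicate block the members called were 4 higher for LPS against Control, 4 lower for HS+LPS against LPS and 2 higher for HS+LPS against Control. The block called 266 genes higher and 93 lower, 816 and 1627, and 658 and 1561 in these comparisons, against 19 and 0, 66 and 107, and 22 and 1 without it; fewer differences between embryos then count as error.

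For LPS against Control, 1 member was called; 2 were with a pseudocount of 16, with median centring, with the mean of a gene's probe sets, with probe sets not of the _s_at or _x_at type, and with signals raised to the noise level (chosen after seeing the data), and 0 with a pseudocount of 1, without the intensity trend and with only the groups compared. For HS+LPS against LPS, 2 were called, and 1 with a pseudocount of 1, without the filter on low signal, with the filter at the 60th percentile (which leaves out Cxcl3), after quantile normalization, with every probe set kept, with the mean of probe sets and without the trend. For HS+LPS against Control, raising signals to noise called 1 where 0 were called. Leaving out 1 array gave 0 to 1, 0 to 2 and 0 members in the 3 comparisons.

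Over all genes, the counts higher for LPS against Control were 5 without the trend and 0 with only the groups compared. For HS+LPS against LPS they were 26 higher and 58 lower without the trend, and 33 and 43 with only the groups compared. For HS+LPS against Control they were 49 and 9 with a pseudocount of 16, 51 and 8 with median centring, 52 and 11 with signals raised to noise, 39 higher with every probe set kept, 13 and 0 without the trend, 14 and 0 with only the groups compared, 7 lower with the filter at the 60th percentile, and 0 lower with the mean of probe sets or probe sets not of the _s_at or _x_at type. Leaving out 1 array gave 0 to 4 higher, and 0 lower, for LPS against Control, 7 to 34 and 1 to 43 for HS+LPS against LPS, and 8 to 14 and 0 for HS+LPS against Control. The cause of these moves was not tested. Signals near or under noise limit the folds of Cxcl2 (Control) and Cxcl3 (Control and HS+LPS).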
